A study of Rattus norvegicus with 15 samples.

Results

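Il6, Tnf, Il1b, Ccl2, Ccl5, Cxcl1, Cxcl2, Ptgs2 and Nfkbia, that is 3 cytokines, 4 chemokines, the inducible prostaglandin synthase and an inhibitor of NF-κB, were followed across RNA-seq libraries of rat cortical astrocytes. They are 9 of the 32552 genes counted in these libraries. Each was chosen by its Ensembl identifier and kept because the chromosome given with that identifier was the one on which the named gene lies, which held for 9 of 9. The study asked what placental mitochondria, given bare or coated with lipid, do to astrocytes that have been through oxidative stress. Primary astrocytes came from the cortex of newborn Sprague Dawley rats, and the culture flasks had been shaken to remove microglia before plating. There were 5 groups of 3 libraries each. Control wells received vehicle. H2O2 wells were exposed to 100 µM H2O2 for 30 min, and the remaining 3 groups had the same exposure followed 24 h later by a treatment. Mitochondria wells then received unmodified mitochondria isolated from placenta, MitoCoat wells received such mitochondria coated with a DOTAP/DOPE lipid, and MitoCoat-mRNA wells received RNA from a mitochondria-enriched fraction encapsulated in lipid, without intact organelles. RNA was collected 6 h after the treatment. The labels speak of extraction from mitochondria-enriched fractions whereas the study's text describes RNA of the astrocytes, and the latter is assumed here. The files pair no identifiers with symbols, so the astrocyte label was not checked against marker genes, and microglia that remained after shaking were not measured. In bulk RNA, fewer cells of a type and less RNA per cell cannot be told apart.

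These genes share much of their control. NF-κB is a family of transcription factors held in the cytoplasm by inhibitors, among them IκBα, the product of Nfkbia. When stress, a cytokine or a microbial or mitochondrial component activates the pathway, IκBα is degraded, NF-κB enters the nucleus, and genes of cytokines, chemokines and prostaglandin synthesis are transcribed together with Nfkbia itself, which shuts the response off again. Reactive astrocytes are a known source of the chemokines Ccl2 and Cxcl1 in the injured brain, while Tnf and Il1b are known chiefly as products of microglia and other myeloid cells.

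The promoters of 4 of the members are printed to show the sequence that NF-κB is known to bind. Each window runs from 250 bases before to 50 bases after the RefSeq start of the gene in GRCr8, 5′ to 3′ on the gene's strand, and all 4 genes lie on the minus strand. Capitals mark matches to GGGNNTTTCC on either strand, a κB-type motif chosen after the sequences had been seen. The windows are chr14:17479272-17479571 for Cxcl1, chr14:17467206-17467505 for Cxcl2, chr6:78597023-78597322 for Nfkbia and chr4:5894526-5894825 for Il6.
Cxcl1: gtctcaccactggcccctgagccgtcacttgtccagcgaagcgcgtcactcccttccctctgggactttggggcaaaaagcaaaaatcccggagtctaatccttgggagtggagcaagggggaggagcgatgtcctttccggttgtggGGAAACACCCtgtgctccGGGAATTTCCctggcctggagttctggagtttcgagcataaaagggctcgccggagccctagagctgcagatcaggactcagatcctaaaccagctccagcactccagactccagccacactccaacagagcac
Cxcl2: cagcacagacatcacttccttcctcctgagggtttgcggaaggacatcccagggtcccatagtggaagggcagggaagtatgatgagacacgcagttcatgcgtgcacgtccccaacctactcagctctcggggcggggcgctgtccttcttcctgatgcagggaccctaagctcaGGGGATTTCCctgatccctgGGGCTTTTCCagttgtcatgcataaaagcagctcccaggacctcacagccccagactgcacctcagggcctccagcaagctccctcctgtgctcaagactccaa
Nfkbia: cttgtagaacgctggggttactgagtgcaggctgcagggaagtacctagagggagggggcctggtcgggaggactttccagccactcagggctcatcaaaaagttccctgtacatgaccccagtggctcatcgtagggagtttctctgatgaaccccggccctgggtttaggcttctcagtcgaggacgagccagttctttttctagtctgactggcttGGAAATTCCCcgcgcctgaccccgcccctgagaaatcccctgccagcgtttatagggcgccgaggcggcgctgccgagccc
Il6: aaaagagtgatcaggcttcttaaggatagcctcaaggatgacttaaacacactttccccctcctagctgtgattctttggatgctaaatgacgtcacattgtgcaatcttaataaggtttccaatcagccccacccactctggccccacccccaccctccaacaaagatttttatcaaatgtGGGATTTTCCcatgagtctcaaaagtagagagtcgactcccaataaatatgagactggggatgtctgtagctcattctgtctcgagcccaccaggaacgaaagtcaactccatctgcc
Cxcl1 held 2 matches, 102 to 93 and 84 to 75 bases before the start. Cxcl2 also held 2, 74 to 65 and 54 to 45 bases before the start. Nfkbia held 1 match at 31 to 22 bases and Il6 held 1 at 68 to 59 bases before the start. RefSeq windows were at hand for 7 of the 9 members, and the motif was found in 4 of these 7, against 512 of all 33469 windows, or 1.53%. As the motif was chosen with these sequences seen, the share among the members is not a test. The windows printed are those with a match. Tnf, Il1b and Ptgs2 had windows without these letters, and Ccl2 and Ccl5 were not among the windows. A looser pattern, GGGNNNNNCC, was present in 6 of the 7 members and in 47.3% of all windows. A match describes letters in a window and is not a measured binding site.

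Total counts per library ran from 35315654 to 46778663, with a median of 41330464. Values are given as counts per 1000000 counts of the library (CPM), scaled by TMM factors that ran from 0.971 to 1.06. Replicates of a group differed by more than counting error, with a chi-square per degree of freedom of 10.6 to 59.7 over 15 pairs. The study calls the libraries of a group biological replicates and states that cell experiments were repeated independently, but which library came from which culture or animals is not given, so p-values measure the spread between these libraries. A gene was called when edgeR's quasi-likelihood test gave a Benjamini-Hochberg adjusted p under 0.05 over all genes tested.

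Il6 encodes interleukin 6, a cytokine that astrocytes secrete in injury. It is listed as ENSRNOG00000010278 and annotated at chr4:3043231-3047807 of Rnor6.0. Its level was 9.22, 7.89 and 7.98 CPM in control libraries 1, 2 and 3, and 7.19, 5.45 and 5.38 CPM in the H2O2 libraries. It was 6.05, 4.11 and 9.89 CPM with mitochondria, 6.87, 5.43 and 9.87 CPM with MitoCoat, and 6.18, 6.29 and 4.53 CPM with MitoCoat-mRNA. Every H2O2 library lay below every control library, as 27.7% of all genes tested did not overlap between these groups, while both organelle groups spread across the range of the others through their library 3. Il6 was not called in any of the 11 comparisons.

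Il1b encodes interleukin 1β, a cytokine that itself activates NF-κB through its receptor. The gene (ENSRNOG00000004649) lies at chr3:121876263-121882726. Control libraries had 33.8, 10.1 and 7.35 CPM, and H2O2 libraries 10.4, 1.66 and 1.53 CPM. Mitochondria libraries had 6.34, 1.22 and 1.30 CPM, MitoCoat libraries 5.21, 1.41 and 1.73 CPM, and MitoCoat-mRNA libraries 6.48, 1.99 and 0.960 CPM. The library numbered 1 was the highest in each of the 5 groups, and the control mean was the highest of the 5 means.

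Tnf encodes tumour necrosis factor, the other classical activator of NF-κB, and is annotated, as ENSRNOG00000055156, at chr20:5189390-5192000. It was at the limit of detection, with 4, 0 and 2 counts in the control libraries and 0 counts in 12 of 12 H2O2-exposed libraries. A count of 0 allows up to 3 counts in a library, or 0.063 to 0.0837 CPM in the libraries at 0, and covers counting error only. With 6 counts in all, Tnf did not pass the filter on low counts in any comparison and no fold change is given.

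Ccl2 encodes the chemokine that recruits monocytes through the receptor CCR2. It is listed as ENSRNOG00000007159 and annotated at chr10:69412017-69413870. Its level differed widely between the groups. Control libraries had 92.3, 62.9 and 50.4 CPM. H2O2 libraries had 173, 218 and 239 CPM, all above the controls, a comparison in which 27.7% of all genes tested did not overlap. Mitochondria libraries had 350, 290 and 600 CPM, MitoCoat libraries 467, 304 and 452 CPM, and MitoCoat-mRNA libraries 320, 217 and 285 CPM. The lowest library of each organelle group lay above the highest H2O2 library, and the MitoCoat-mRNA libraries overlapped both. Group means were 68.5 ± 21.5 (SD, n = 3) CPM in control, 210 ± 33.5 in H2O2, 274 ± 52.5 with MitoCoat-mRNA, 408 ± 90.2 with MitoCoat and 413 ± 164 with mitochondria.

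Cxcl1 encodes a neutrophil-attracting chemokine that signals through CXCR2, and lies, as ENSRNOG00000002802, at chr14:18743685-18745457. Its control values were 132, 97.7 and 53.9 CPM, and its H2O2 values 55.3, 66.1 and 35.2 CPM. With mitochondria it reached 203, 171 and 473 CPM and with MitoCoat 191, 159 and 285 CPM. With MitoCoat-mRNA it stood at 62.7, 37.0 and 29.7 CPM. All 6 organelle libraries lay above all 9 others, and the H2O2 and MitoCoat-mRNA libraries overlapped. The share of all genes that separate 6 from 9 libraries was not counted. Between the 6 organelle and the 6 other H2O2-exposed libraries, 6.01% of all genes tested did not overlap. Group means were 43.1 ± 17.3 (SD, n = 3) CPM with MitoCoat-mRNA, 52.2 ± 15.7 in H2O2, 94.5 ± 39.1 in control, 212 ± 65.3 with MitoCoat and 282 ± 166 with mitochondria.

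Cxcl2 encodes a close relative of Cxcl1 with the same receptor and lies beside it, as ENSRNOG00000002792 at chr14:18731378-18733391. It was less abundant, at 40.3, 9.61 and 7.17 CPM in control and 14.6, 3.41 and 1.87 CPM in H2O2. The values were 14.1, 5.68 and 17.7 CPM with mitochondria, 13.05, 4.87 and 11.3 CPM with MitoCoat, and 8.07, 1.78 and 1.46 CPM with MitoCoat-mRNA. Library 1 was the highest in 4 of the 5 groups, and every pair of groups overlapped.

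Ccl5 encodes a chemokine that attracts T cells and monocytes, and is annotated, as ENSRNOG00000010906, at chr10:70739800-70744315. It had only 215 counts over the 15 libraries. There were 4, 8 and 2 counts in control, 2, 2 and 6 in H2O2, 10, 10 and 78 with mitochondria, 15, 4 and 26 with MitoCoat, and 14, 10 and 24 with MitoCoat-mRNA. It passed the filter on low counts only in 4 comparisons among the H2O2-exposed groups, where it was not called. The mitochondria counts lay above those of H2O2 and of control, where 19.2% and 39.5% of all genes tested did not overlap. The MitoCoat-mRNA counts also lay above both, where 8.997% and 36.3% did not overlap, and the MitoCoat counts overlapped both. In all of these comparisons the filter left Ccl5 out. Analyses that kept it called it in part with mitochondria, and in 0 cases with MitoCoat or MitoCoat-mRNA. With mitochondria against H2O2, Ccl5 was called with a log2 change of 3.05 by DESeq2 (adjusted p = 0.0311), 3.05 by DESeq2 on all 15 samples (0.0258) and 3.02 by edgeR when genes with 1 or more counts were kept (0.0341). It was not called by edgeR on all 15 samples (3.01, adjusted p = 0.0823), with the block on all 15 samples (2.78, 0.0541) or in the 4 analyses without 1 library that kept it (edgeR, adjusted p of 0.1 to 0.292). With mitochondria against control it was called by DESeq2 (2.65, adjusted p = 0.021), by DESeq2 (2.65, 0.021) and edgeR (2.64, 0.0423) on all 15 samples, and by edgeR with 1 or more counts (2.65, 0.0284). There it was not called with the block on all 15 samples (2.09, adjusted p = 0.0652), without the libraries numbered 1 (2.97, 0.092) or in the 5 analyses without 1 library that kept it (edgeR, adjusted p of 0.0522 to 0.173).

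Ptgs2 encodes cyclooxygenase-2, the inducible enzyme that starts prostaglandin synthesis, and is annotated, as ENSRNOG00000002525, at chr13:67351087-67359335. Its level lay in a narrow range. Control libraries had 11.2, 12.9 and 5.99 CPM, H2O2 libraries 11.3, 14.9 and 8.88 CPM, and mitochondria libraries 10.2, 13.2 and 10.5 CPM. MitoCoat libraries had 11.3, 14.3 and 9.28 CPM and MitoCoat-mRNA libraries 12.8, 12.9 and 9.78 CPM. The 5 group means ran from 10.0 to 11.8 CPM, closer together than the lowest and highest library of any 1 group, and library 2 was the highest in all 5 groups.

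Nfkbia encodes IκBα, the inhibitor that NF-κB itself induces, and lies, as ENSRNOG00000007390, at chr6:76267228-76270457. Control libraries had 170, 90.7 and 70.1 CPM and H2O2 libraries 81.1, 65.2 and 44.1 CPM. Mitochondria libraries had 160, 122 and 183 CPM, MitoCoat libraries 124, 109 and 151 CPM, and MitoCoat-mRNA libraries 60.5, 47.1 and 36.1 CPM. Both organelle groups lay above all H2O2 and MitoCoat-mRNA libraries and overlapped the controls. Against MitoCoat-mRNA, 19.3% of all genes tested did not overlap with mitochondria and 19.7% with MitoCoat.

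**Figure D1:**
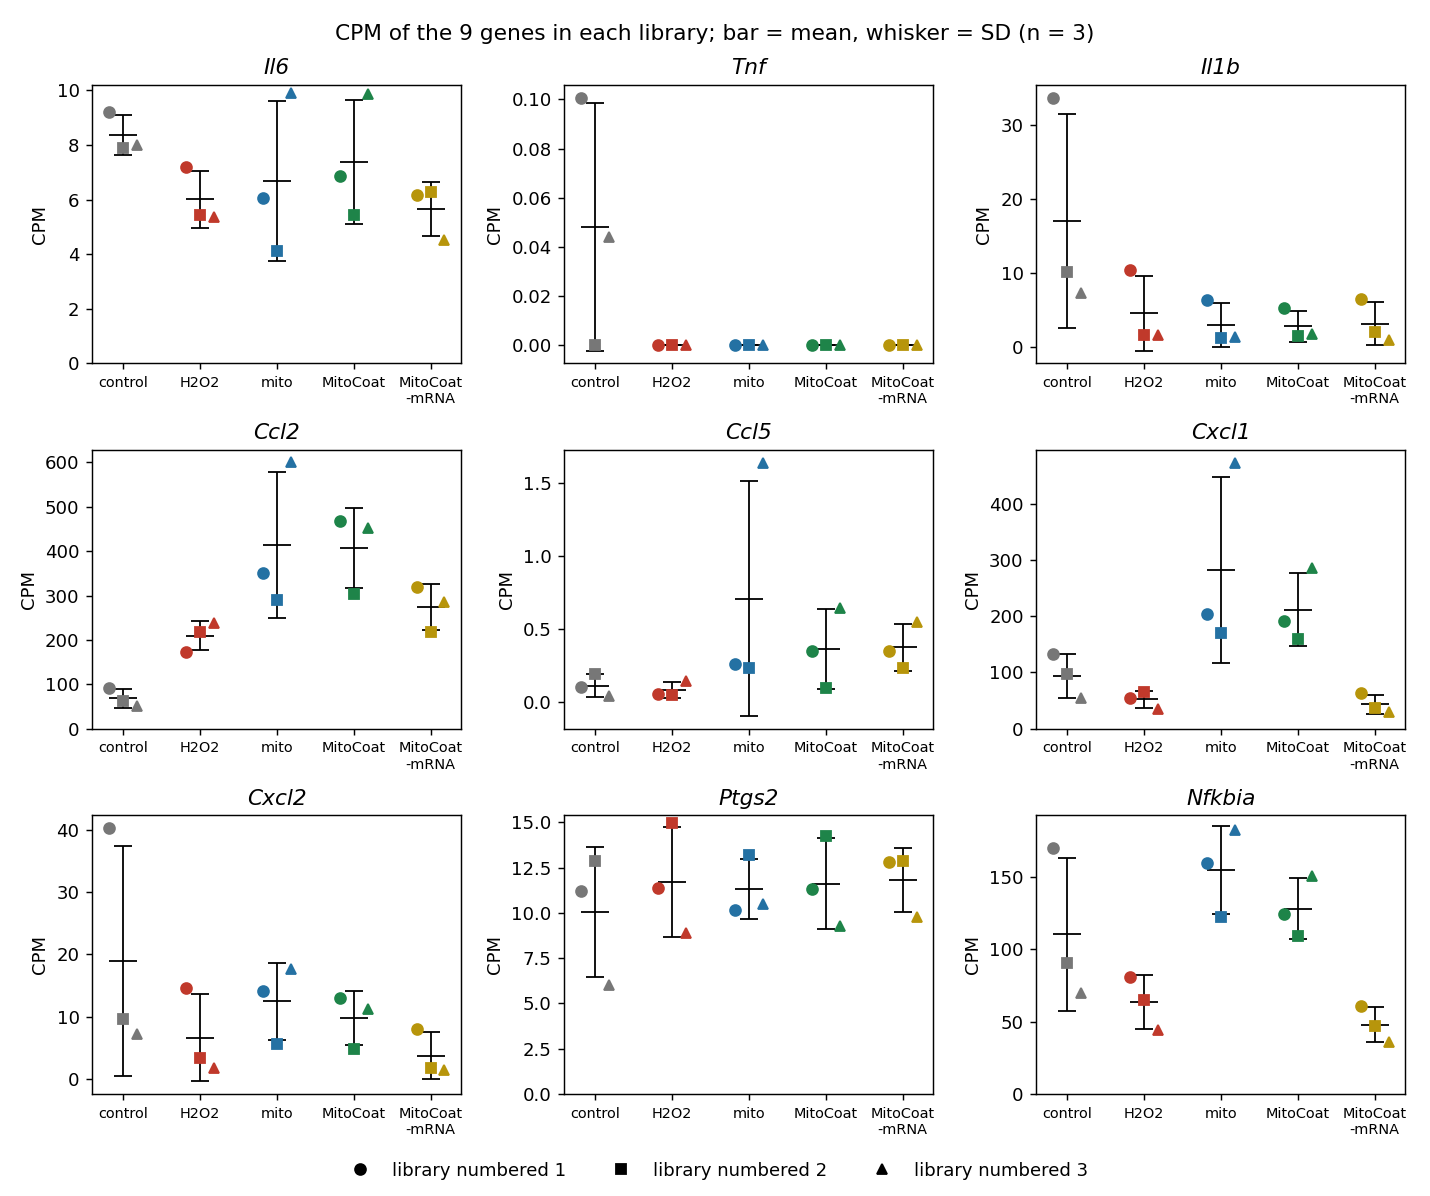
CPM (linear axes) of the 9 genes in each of the 15 libraries, with 1 panel per gene, marker shape for the library's replicate number, a bar for the mean and a whisker for the SD (n = 3). The 6 mitochondria and MitoCoat libraries sit between 159 and 473 CPM for Cxcl1 while the H2O2 and MitoCoat-mRNA libraries sit between 29.7 and 66.1 CPM, and Tnf is at 0 in 12 of 12 H2O2-exposed libraries.

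The first comparison asked what the H2O2 exposure left behind in these genes at the time of sampling. Ccl2 rose after H2O2, by 1.63 ± 0.21 (SE) on the log2 scale or 3.10-fold (edgeR, adjusted p = 0.00414), and stayed called in 15 of 15 alternative analyses. It was the 1 member called of 7 tested, where 7.19% of 15650 genes were called. The other chemokines and the cytokines did not pass in this fit. Their log2 changes were −1.90 ± 0.81 for Il1b (adjusted p = 0.207), −1.50 ± 0.82 for Cxcl2 (0.321), −0.83 ± 0.32 for Cxcl1 (0.17) and −0.46 ± 0.17 for Il6 (0.164). Nfkbia had −0.77 ± 0.33 (0.205) and Ptgs2 0.25 ± 0.29 (0.654). With each sample left out, the log2 change of Cxcl2 ranged from −2.82 to −0.33. The median log2 change over the 7 members was −0.77 against 0.01 over all genes tested. Blocking on the replicate number, edgeR also called Il1b (−2.12, adjusted p = 0.00143), Cxcl2 (−1.59, 0.00163), Cxcl1 (−0.79, 0.0149) and Nfkbia (−0.72, 0.013), where 9.45% of all genes were called. The numbers did not pass the pairing check in this pair of groups. With the block on all 15 samples Il1b (adjusted p = 8.29e-06), Cxcl2 (0.0362) and Nfkbia (0.0388) stayed called and Cxcl1 was not (0.182), where 15.2% of all genes were called. Without the libraries numbered 1, edgeR called Il1b (−2.43, adjusted p = 0.00317) and Cxcl2 (−1.65, 0.0226) besides Ccl2, where 10.7% of all genes were called. Without H2O2 replicate 1, Il1b fell by 3.40 (adjusted p = 0.037), where its adjusted p ranged from 8.29e-06 to 0.481 over 15 alternatives. With each sample left out, its log2 change ranged from −3.40 to −0.94.

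Unmodified mitochondria were set against H2O2 alone to ask what the organelles add. Cxcl1 rose by 2.41 ± 0.37 on the log2 scale, or 5.33-fold (edgeR, adjusted p = 0.0056), and Nfkbia rose by 1.27 ± 0.21, or 2.41-fold (adjusted p = 0.00949). Both stayed called in 15 of 15 alternatives. They were 2 of 7 members tested, where 3.59% of 15613 genes were called. The values of mitochondria and H2O2 did not overlap for Cxcl1, Nfkbia and Ccl2, as for 19.2% of all genes tested. Ccl2 had 0.96 ± 0.23, or 1.95-fold, with an adjusted p of 0.0534, just outside the threshold. Libraries with the same number deviated together in these groups, and with the replicate number as a block Ccl2 was called at 0.91 (adjusted p = 6.07e-06) and Cxcl2 at 1.17 (adjusted p = 0.0202), where 7.96% of all genes were called. With the block on all 15 samples Ccl2 was called (0.92, adjusted p = 0.0189) and Cxcl2 was not (adjusted p = 0.151). The adjusted p of Ccl2 ranged from 6.07e-06 to 0.23 over 15 alternatives, and it was called without mitochondria replicate 2 (1.16, adjusted p = 0.023), with 1 or more counts (0.98, 0.00164) and on all 15 samples by edgeR (0.97, 0.0462) and DESeq2 (0.97, 0.0392). Cxcl2, at 0.90 ± 0.64 without the block, was also called without H2O2 replicate 1 (2.23, adjusted p = 0.0397), in a range of 0.0202 to 0.869. Il6, Il1b and Ptgs2 had log2 changes of 0.14, −0.63 and −0.07 and were not called.

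MitoCoat was set against H2O2 in the same way. Cxcl1 rose by 2.02 ± 0.26 on the log2 scale or 4.06-fold (edgeR, adjusted p = 0.0041), Nfkbia by 1.01 ± 0.21 or 2.02-fold (adjusted p = 0.0309) and Ccl2 by 0.96 ± 0.17 or 1.95-fold (adjusted p = 0.0166). The groups did not overlap for any of these, as for 20.6% of all genes tested. These were 3 of 7 members, where 3.05% of 15724 genes were called. Cxcl1 stayed called in 15 of 15 alternatives, and the other calls did not. Ccl2 lost its call without MitoCoat replicate 1 (0.86, adjusted p = 0.055), MitoCoat replicate 3 (0.87, 0.0654) or H2O2 replicate 1 (0.84, 0.0731) and without all libraries numbered 1 (0.74, 0.126), in a range of 6.11e-07 to 0.126. Nfkbia lost its call without MitoCoat replicate 1 (1.04, adjusted p = 0.0649), 2 (1.11, 0.0556) or 3 (0.87, 0.106) and without H2O2 replicate 2 (1.04, 0.0663) or 3 (0.80, 0.0589), and by edgeR on all 15 samples (1.03, 0.0519), in a range of 5.34e-06 to 0.106. Cxcl2, Il6, Il1b and Ptgs2 had log2 changes of 0.56, 0.30, −0.70 and −0.01 and were not called. Both organelle comparisons use the same H2O2 libraries.

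MitoCoat-mRNA was set against H2O2 to ask whether encapsulated RNA without organelles moves the genes. Of the 7 members tested, 0 were called, where edgeR called 0% of 15506 genes. Unadjusted p-values below 0.05 numbered 463 in edgeR, and DESeq2 called 0 genes. Of the members, Ccl2 had the lowest unadjusted p, with a log2 change of 0.38 and a 95% interval of 0.02 to 0.73 (edgeR, adjusted p = 1). Cxcl1 had −0.28 with an interval of −0.94 to 0.37, and Nfkbia −0.42 with an interval of −0.95 to 0.12. The interval for Cxcl1 ends below the values fitted for mitochondria and MitoCoat, and that for Cxcl2, −2.65 to 1.00, includes both. Libraries of the same number deviated together in this pair of groups. With the replicate number as a block, edgeR also called 0 of 7 members and 0% of all genes.

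The direct comparison of the coated with the uncoated organelles called 0 of 8 members, where edgeR called 0% of 15731 genes. Here 779 genes had an unadjusted p under 0.05 in edgeR, and DESeq2 called 3 genes. Ccl2 differed by 0.00 on the log2 scale with a 95% interval of −0.56 to 0.55. For Cxcl1 the log2 difference was −0.40 with an interval of −1.17 to 0.38, and for Nfkbia −0.26 with an interval of −0.61 to 0.09. Cxcl1, Cxcl2 and Nfkbia were lower with MitoCoat in 3 of 3 pairs of the same number. These differences did not pass the test (edgeR, adjusted p of 0.889 to 0.938), and without mitochondria replicate 3 the log2 difference of Cxcl1 was 0.20. Il6, Il1b, Ccl2, Ccl5 and Ptgs2 had pairs on both sides. How many of all genes lay on the same side in 3 of 3 pairs was not counted, so no effect of the coating is read from these pairs. Differences inside these intervals could not be seen with 3 libraries a group.

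**Figure D2:**
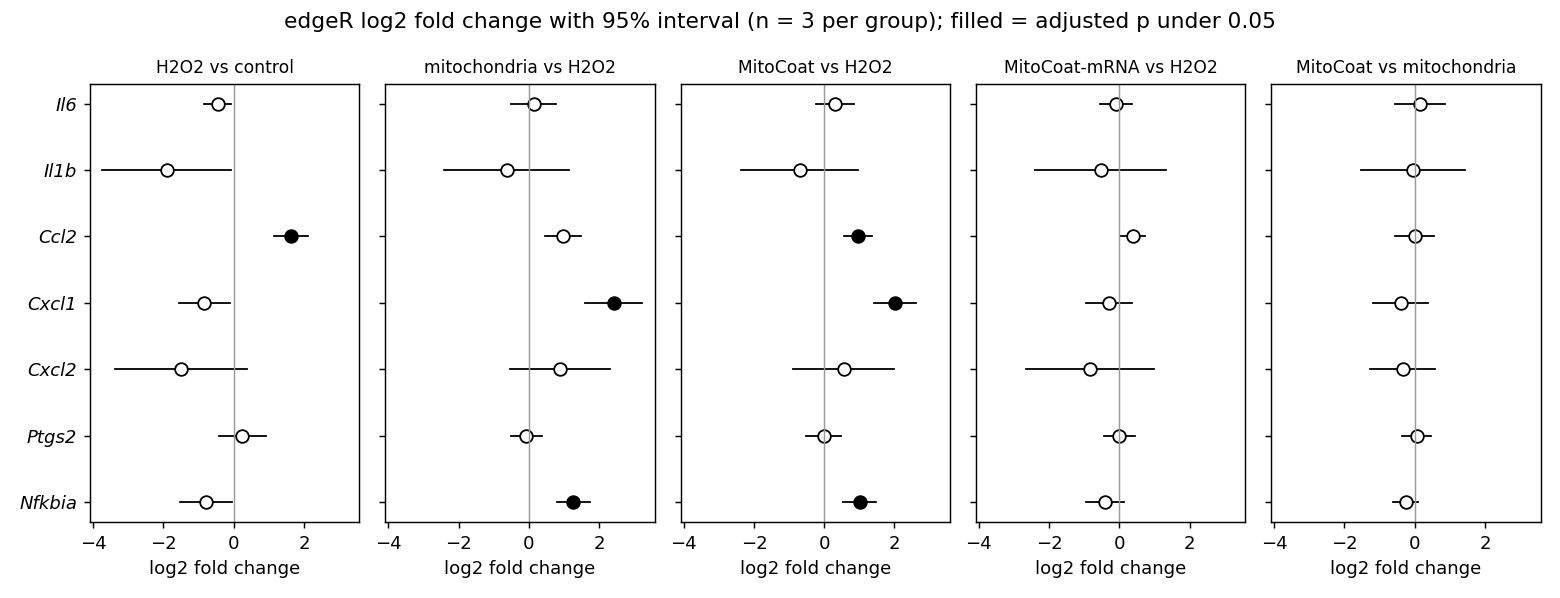
The log2 fold change of 7 members in 5 comparisons (x axis) with its 95% interval from edgeR, filled where the adjusted p was under 0.05. Ccl2 is filled after H2O2 and with MitoCoat, Cxcl1 and Nfkbia are filled with mitochondria and MitoCoat, and no gene is filled with MitoCoat-mRNA or between the organelle groups.

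Against MitoCoat-mRNA, the organelle groups stood apart for the same kind of genes. Mitochondria gave a log2 difference of 2.71 ± 0.39, or 6.54-fold, for Cxcl1 (edgeR, adjusted p = 0.00408) and of 1.69 ± 0.19, or 3.23-fold, for Nfkbia (adjusted p = 0.000957). These were 2 of 8 members, where 3.56% of genes were called. With each sample left out, the log2 difference of Cxcl1 ranged from 2.12 to 3.08. With the replicate number as a block, Cxcl2 (1.92, adjusted p = 0.00425) and Ccl2 (0.54, adjusted p = 0.0214) were called as well, against 0.196 and 0.276 without it, where 7.33% of all genes were called. With the block on all 15 samples Cxcl2 was called (2.09, adjusted p = 0.0195) and Ccl2 was not (adjusted p = 0.203). Cxcl2 was also called without MitoCoat-mRNA replicate 1 (2.95, adjusted p = 0.0138) and with 1 or more counts (1.73, 0.0266), in a range of 0.00425 to 0.496. MitoCoat gave 2.30 ± 0.29, or 4.94-fold, for Cxcl1 (adjusted p = 0.00247) and 1.43 ± 0.18, or 2.69-fold, for Nfkbia (adjusted p = 0.00283). That was again 2 of 8 members, where 2.98% of genes were called. There Cxcl2 was called without MitoCoat-mRNA replicate 1 (2.59, adjusted p = 0.0178) or all libraries numbered 1 (2.33, 0.0206), in a range of 0.0178 to 0.695, and Ccl2 had 0.58 ± 0.18 (adjusted p = 0.148). Ccl2 was called there by DESeq2 (0.58, adjusted p = 0.00909) and when genes with 1 or more counts were kept (0.57, adjusted p = 0.035), in a range of 0.00909 to 0.487.

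The 6 libraries that received organelles were also set against the 6 H2O2-exposed libraries that did not, in a model with a mean for each group. Cxcl1 was 2.37 ± 0.28 higher on the log2 scale, or 5.18-fold (edgeR, adjusted p = 6.29e-05), and Nfkbia 1.36 ± 0.16 higher, or 2.57-fold (adjusted p = 7.21e-05). For both, 6 of 6 organelle libraries lay above the 6 others, and 6.01% of all genes tested did not overlap in this comparison. Ccl2 was 0.78 ± 0.17 higher, or 1.72-fold (adjusted p = 0.00849), with overlap between the sides, and it lost its call without the libraries numbered 1 (0.79, adjusted p = 0.0575, in a range of 0.000176 to 0.0575). These were 3 of 8 members, where 9.03% of 16378 genes were called. Cxcl1 and Nfkbia kept their calls in 21 of 21 alternatives. Cxcl2 had 1.15 ± 0.52 (adjusted p = 0.228). It was called with the replicate number as a block (1.42, adjusted p = 0.0109), also on all 15 samples (1.49, 0.00909), and without H2O2 replicate 1 (1.81, adjusted p = 0.0302) or MitoCoat-mRNA replicate 1 (1.76, 0.0436) and without all libraries numbered 1 (2.24, 0.00858), in a range of 0.00858 to 0.422. Ccl5, which entered through its higher groups, had 1.49 ± 0.61 (adjusted p = 0.177). Ptgs2 had −0.03 with a 95% interval of −0.34 to 0.28.

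Against unexposed controls, Ccl2 was higher in each treated group, and each of the treated libraries had less Il1b than any control. The share of all genes tested that did not overlap was 39.5% with mitochondria, 41.6% with MitoCoat and 36.3% with MitoCoat-mRNA. With mitochondria, Ccl2 was 6.02-fold and Cxcl1 2.98-fold of control (log2 2.59 and 1.58, edgeR, adjusted p = 0.000402 and 0.0227), and Il1b fell by 2.55 (adjusted p = 0.035). That was 3 of 7 members, where 22.5% of genes were called. Cxcl1 lost its call there without mitochondria replicate 3 (0.99, adjusted p = 0.0651), control replicate 2 (1.60, 0.063) or control replicate 3 (1.29, 0.0533), in a range of 0.00165 to 0.0651. Il1b lost its call without mitochondria replicate 2 (−2.18, adjusted p = 0.115), mitochondria replicate 3 (−2.18, 0.117) or control replicate 1 (−1.58, 0.094), and on all 15 samples by edgeR (−2.55, 0.057) and DESeq2 (−2.54, 0.0508), in a range of 9.28e-09 to 0.117. Nfkbia, at 0.49, was called without control replicate 1 (0.95, adjusted p = 0.00437) or all libraries numbered 1 (0.92, 0.016, in a range of 0.00437 to 0.579), and Il6, at −0.32, without mitochondria replicate 3 (−0.72, adjusted p = 0.049, in a range of 0.049 to 0.88).

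With MitoCoat, Ccl2 was 5.98-fold and Cxcl1 2.25-fold of control (log2 2.58 and 1.17, edgeR, adjusted p = 0.000192 and 0.0248), and Il1b fell by 2.61 (adjusted p = 0.0201). Again this was 3 of 7 members, where 24.1% of genes were called. Without MitoCoat replicate 3, Cxcl1 (0.90, adjusted p = 0.0829) and Il1b (−2.36, 0.0729) lost their calls. Cxcl1 also lost it without control replicate 2 (1.20, 0.0623) and by DESeq2 on all 15 samples (1.17, 0.0583), and Il1b without MitoCoat replicate 2 (−2.29, 0.0898). Over 15 alternatives the adjusted p of Cxcl1 ranged from 0.00336 to 0.0829 and that of Il1b from 5.91e-07 to 0.0898. With each sample left out, the log2 change of Il1b ranged from −3.43 to −1.64. Nfkbia, at 0.22, was called without control replicate 1 (0.68, adjusted p = 0.0162) or all libraries numbered 1 (0.71, 0.0218, in a range of 0.0162 to 0.968).

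With MitoCoat-mRNA, Ccl2 was 4.02-fold of control (log2 2.01, edgeR, adjusted p = 0.00115) and Nfkbia fell by 1.20 (adjusted p = 0.0376), which was 2 of 7 members where 15.9% of genes were called. Libraries of the same number deviated together in this pair of groups, and with the replicate number as a block 6 of 7 members were called, where 36.9% of all genes were called. The additional ones were Il1b (−2.49, adjusted p = 2.16e-09), Cxcl2 (−2.33, 8.02e-10), Cxcl1 (−1.11, 4.44e-08) and Il6 (−0.56, 0.00445), all lower than in control. Without the block these had adjusted p-values of 0.0614, 0.0867, 0.0627 and 0.0644. Without MitoCoat-mRNA replicate 1, Il1b (−3.53, adjusted p = 0.0259), Cxcl2 (−3.55, 0.0326) and Cxcl1 (−1.50, 0.0309) were called, and Cxcl1 was called without control replicate 3 (−1.41, 0.0246). With each sample left out, the log2 change ranged from −3.53 to −1.46 for Il1b, −3.55 to −1.14 for Cxcl2 and −1.50 to −0.80 for Cxcl1. The same 3 genes were called with 1 or more counts (adjusted p of 0.0206 for Il1b, 0.0363 for Cxcl2 and 0.0218 for Cxcl1) and without all libraries numbered 1 (0.00295, 0.00111 and 0.017), and Il6 by DESeq2 (−0.56, adjusted p = 0.0275). Their adjusted p ranged over 15 alternatives from 2.16e-09 to 0.188 for Il1b, from 8.02e-10 to 0.239 for Cxcl2, from 4.44e-08 to 0.187 for Cxcl1 and from 0.00445 to 0.193 for Il6. With the block on all 15 samples, Cxcl1 (adjusted p = 0.0502) and Il6 (0.144) were not called. Nfkbia lost its call without MitoCoat-mRNA replicate 2 (−1.18, adjusted p = 0.12), MitoCoat-mRNA replicate 3 (−1.02, 0.115) or control replicate 2 (−1.32, 0.0652), in a range of 7.59e-08 to 0.12. All 3 treated groups were compared with the same control libraries.

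The replicate number itself was a source of variation for some members. In a fit of all 15 libraries with group and replicate number, 3 of the 8 members tested were called for the number, where 5.2% of 16631 genes were called. Il1b was the clearest, 2.04 and 2.30 lower on the log2 scale in the libraries numbered 2 and 3 than in those numbered 1 (edgeR, adjusted p = 2.38e-07). Library 1 of a group held 3.32 to 6.51 times the mean Il1b of the other libraries of its group. Cxcl2 was 1.90 and 1.38 lower in numbers 2 and 3 than in number 1 (adjusted p = 0.00764). Ptgs2 was 0.27 higher in number 2 and 0.36 lower in number 3 than in number 1 (adjusted p = 0.00932). Cxcl1 (adjusted p = 0.871), Ccl2 (0.421), Nfkbia (0.256), Ccl5 (0.316) and Il6 (0.6) were not called for the number. What the numbers stand for is not given in the sources used here, and the part of cell composition in these differences was not tested.

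**Figure D3:**
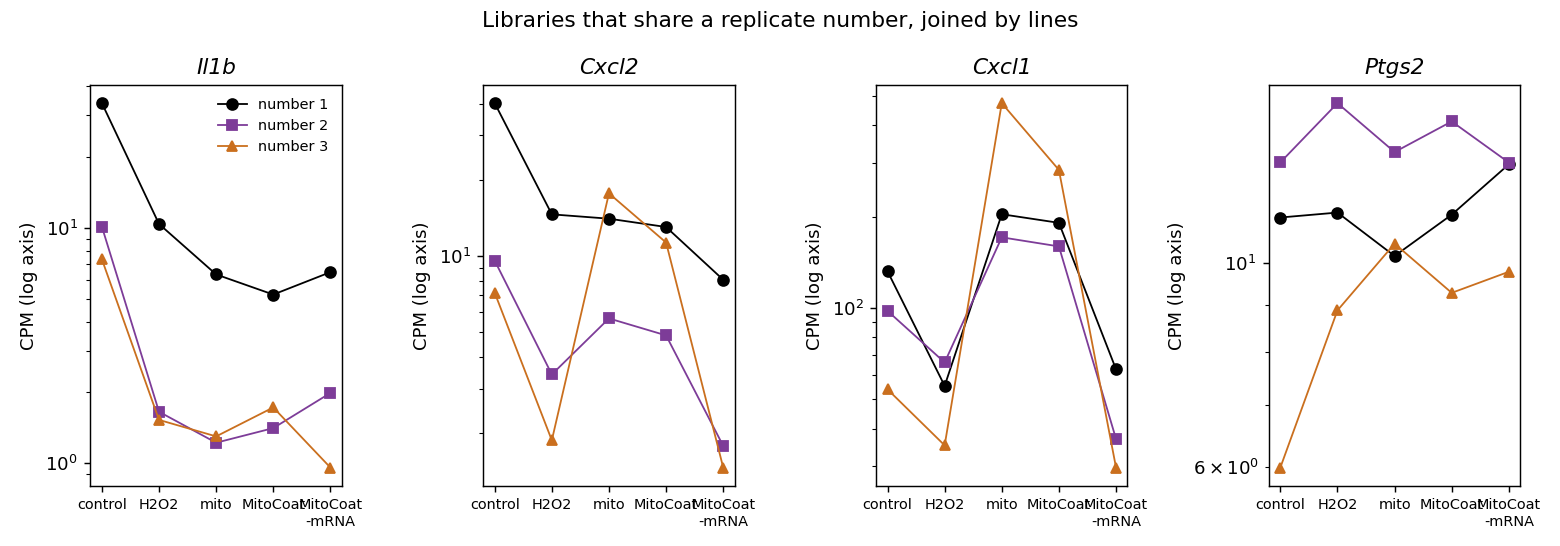
CPM (log axes) of Il1b, Cxcl2, Cxcl1 and Ptgs2 in the 5 groups (x axis), with a line joining the libraries that share a replicate number. For Il1b the line of number 1 is on top in 5 of 5 groups, and for Cxcl1 all 3 lines peak with mitochondria.

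Cxcl1 and Ccl2, the most abundant chemokines of the list, had different profiles over the groups. Per kilobase of exon, Ccl2 stood at 82.1 and Cxcl1 at 102 RPKM in control, and at 495 and 305 RPKM with mitochondria. The ratio of their RPKM in control libraries 1, 2 and 3 was 0.776, 0.714 and 1.04. It was 3.47, 3.65 and 7.51 in H2O2, 1.91, 1.88 and 1.41 with mitochondria, 2.72, 2.11 and 1.76 with MitoCoat, and 5.66, 6.51 and 10.6 with MitoCoat-mRNA. Ccl2 was thus below or level with Cxcl1 in control, well above it after H2O2 alone or with MitoCoat-mRNA, and in between with organelles. Of the 10 pairs of groups, 8 did not overlap, each with a two-sided exact permutation p of 0.1, the smallest that 3 against 3 allow (0.125 after adjustment over the 10 pairs). The exceptions were MitoCoat-mRNA against H2O2 and MitoCoat against mitochondria, with an exact p of 0.3 each. The ratio was not among the planned tests and restates the levels of Ccl2 and Cxcl1 given above. How many other pairs of genes separate the groups in this way was not counted. Per kilobase of exon, Nfkbia had 70.5 RPKM in control, Cxcl2 17.7, Il1b 12.2, Il6 8.01 and Ptgs2 2.29.

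**Figure D4:**
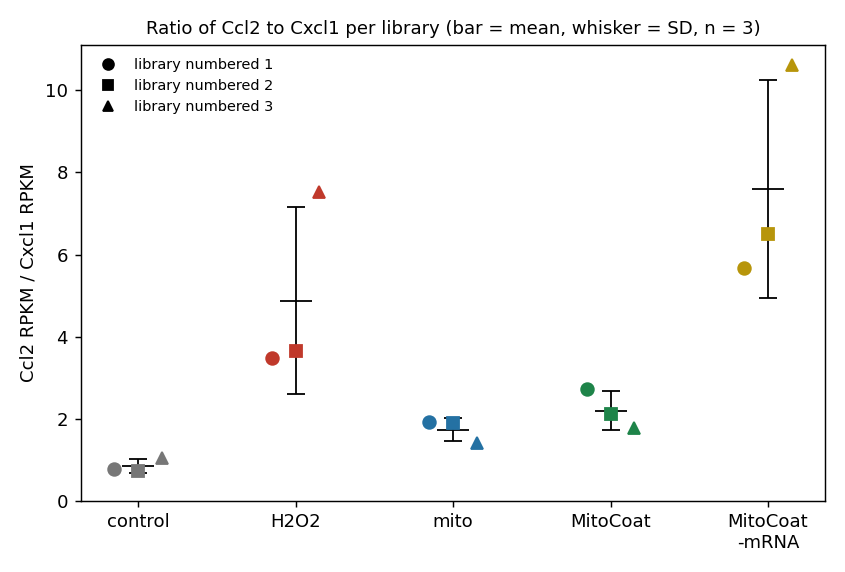
Ratio of Ccl2 to Cxcl1, each in RPKM, in the 15 libraries (linear axis), with a bar for the mean and a whisker for the SD (n = 3). The ratio averages 0.843 in control, 4.88 in H2O2, 1.73 with mitochondria, 2.20 with MitoCoat and 7.60 with MitoCoat-mRNA.

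Genes whose log2 CPM was most like that of the highest members were sought among 13291 genes over the 15 libraries, which share their groups. For Ccl2 it was ENSRNOG00000000239 (chr10:69423086-69424979), which starts 11.069 kb from Ccl2, with a Pearson r of 0.994. Its mean was 27.1 CPM in control, 123 in H2O2, 295 after mitochondria, 323 after MitoCoat and 182 after MitoCoat-mRNA. For Cxcl1 it was ENSRNOG00000023258 (chr2:240773456-240866689), with r of 0.966 and means of 72.1, 54.1, 114, 94.2 and 49.96 CPM in the same order. In RefSeq's GRCr8 table, the genes beside Ccl2 are Ccl7, Ccl11, Ccl12 and Ccl1, and those around Cxcl1 and Cxcl2 include the CXC chemokines Cxcl3, Cxcl6, Pf4 and Ppbp and the growth factors Areg, Ereg, Epgn and Btc. The identifiers near the members were not paired with these names.

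Genes annotated within 500 kb of a member were counted in the same fits. Near Cxcl1 and Cxcl2, 6 of 10 tested neighbours were higher in the 6 organelle libraries than in the 6 other H2O2-exposed libraries and 0 were lower, where 9.03% of all genes were called. One called gene, 76.483 kb from Cxcl1, averaged 0.849 CPM in control, 1.95 in H2O2, 14.4 with mitochondria, 10.9 with MitoCoat and 2.47 with MitoCoat-mRNA. Its mitochondria libraries had 9.58, 6.72 and 27.0 CPM, so the mean without library 3 was 8.15 CPM. A further one, at 116.579 kb, averaged 1.65, 0.904, 20.0, 9.95 and 0.670 CPM in that order. Library 3 carried much of both organelle means, with 6.98, 7.85 and 45.1 CPM with mitochondria and 5.83, 6.35 and 17.7 CPM with MitoCoat, and without it they were 7.42 and 6.09 CPM. These genes stayed called in the pooled comparison in 21 of 21 and in 19 of 19 alternatives that tested them. Another, at −167.33 kb, averaged 0.406, 1.07, 4.46, 4.31 and 1.17 CPM. The farthest called neighbour, at 398.07 kb, had at most 4 counts in any control and 2 in any H2O2 library, 14 to 46 counts with mitochondria and 40 to 112 with MitoCoat. It passed the filter on low counts only where an organelle group took part, and whether its counts came from the placental preparation was not tested. Without it, 5 of 9 neighbours were called in the pooled comparison. Against H2O2 alone, 4 of 10 neighbours were higher with mitochondria and 5 of 10 with MitoCoat, that gene included (3 of 9 and 4 of 9 without it). Of all genes, 3.59% and 3.05% were called in these comparisons. With mitochondria it was 3 of 10 without mitochondria replicate 1, 2 or 3, H2O2 replicate 2 or 3, or the libraries numbered 1. It was 6 of 10 there with the replicate block, where 7.96% of all genes were called. With MitoCoat it was 3 of 10 without MitoCoat replicate 1 or 2 or H2O2 replicate 3. It was 7 of 10 by DESeq2, by edgeR on all 15 samples and with the block on all 15 samples, where 5.44% to 7.79% of all genes were called. With MitoCoat-mRNA 0 of 9 were called. Near Ccl2, 1 of 3 tested neighbours was called, the gene named above, and near Nfkbia 0 of 13 were. In the same pooled comparison, 8 of 65 tested neighbours of Tnf were higher and 1 lower, 2 of 14 near Il1b were higher and 1 lower, 3 of 22 near Ccl5 were higher, 1 of 5 near Ptgs2 was lower, and 0 of 2 near Il6 were called.

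**Figure D5:**
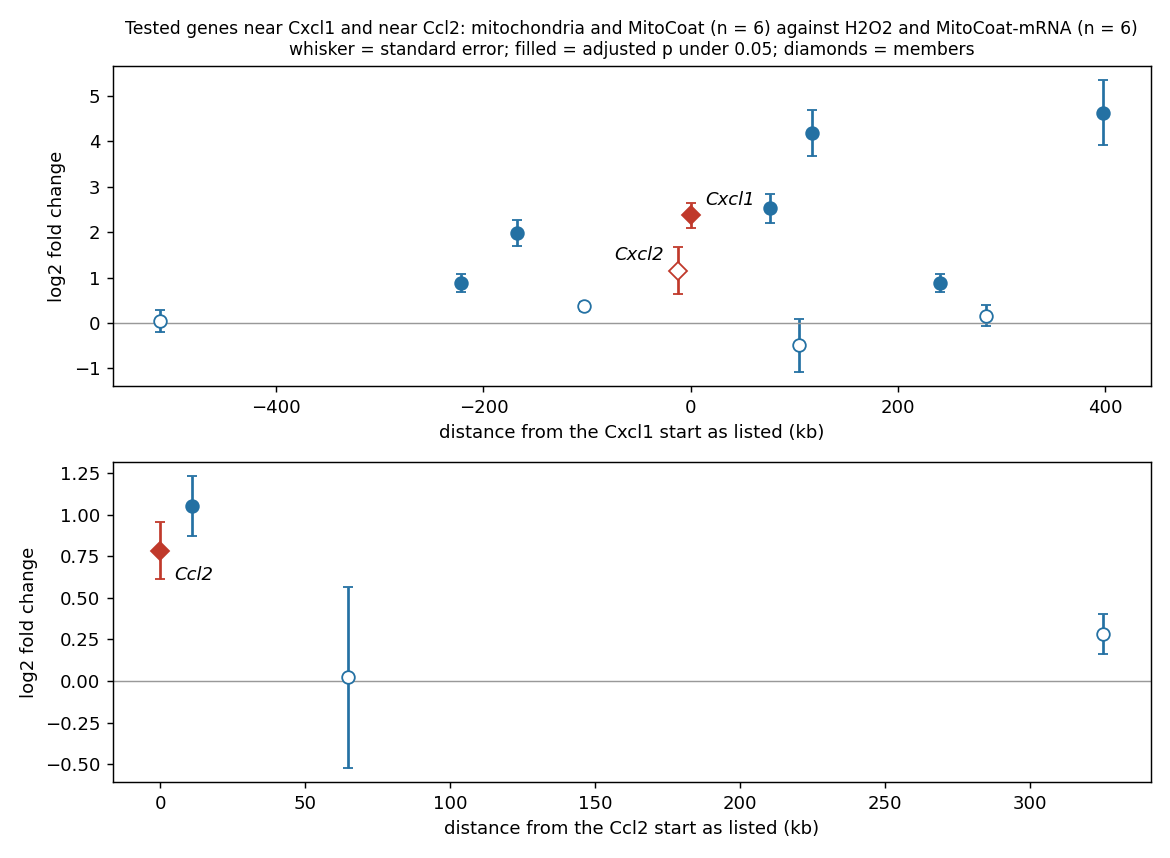
The log2 fold change (y axis, whisker for the SE) of tested genes against their distance in kb from the Cxcl1 or Ccl2 start, for the 6 mitochondria and MitoCoat libraries against the 6 H2O2 and MitoCoat-mRNA libraries, with members as diamonds and called genes filled. Around Cxcl1, 6 of 10 neighbours are filled, all above 0, and around Ccl2 1 of 3 is.

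The organelle preparations came from placenta and could carry RNA of their own, so a count in these libraries does not tell which cells transcribed it. As a description, 55 genes had 0 counts in all control and H2O2 libraries and at least 1 count in every library of the mitochondria or the MitoCoat group. Their summed level was 26.2, 23.9 and 6.84 CPM in mitochondria libraries 1, 2 and 3, 86.7, 63.1 and 15.4 CPM in MitoCoat libraries, and 0.411 to 0.555 CPM in MitoCoat-mRNA libraries. These genes were picked for this pattern, and their sum is not the total of carried RNA. The part of carried RNA in the Cxcl1, Ccl2 and Nfkbia levels was not tested.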

How the data were processed

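RNA-seq had been done on 15 samples of astrocytes, 3 in each of 5 groups. Trimmomatic, STAR with the Rnor6.0 assembly and featureCounts (Subread 1.5.2) were used by the authors, who counted uniquely mapped reads on the exons of Ensembl genes. The deposited values are these raw counts, 1 file per sample. Whether strand was used is given only as "when applicable". 1 further file was identical to that of mitochondria replicate 2 and was not used. 0 of the 32552 identifiers matched the RefSeq table by Ensembl identifier, so the symbols of the members come from the rule that chose them, checked by chromosome (9 of 9) and by gene span, which was 0.932 to 1.03 of the RefSeq span. Lists of pathway genes and cell type markers could not be matched and were not analysed here. The members, lists, comparisons and the rule for named genes were chosen with earlier results of these data known. By that rule all members are named, and for the 2 members of highest mean CPM the gene of mean CPM of at least 1 with the largest Pearson r over the 15 libraries. The neighbours described by position and the 55 genes absent from control and H2O2 libraries were chosen after their values were seen.

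The test was that of edgeR 4.0.16 in R 4.3.3 (filterByExpr on the groups compared, TMM, quasi-likelihood F test, two-sided) over all genes, on the 6 samples of each comparison or the 12 of the pooled one, with Benjamini-Hochberg adjustment. CPM used TMM-scaled library sizes, and RPKM also the exon length given in the files. Log2 CPM used a prior count of 2. Confidence intervals are at 95%. Alternatives were DESeq2 1.42.0 on the same or all 15 samples, edgeR on all 15 samples, RLE factors, filters of at least 1 count in total or 10 in every sample, a block for the replicate number, and each sample left out. Chosen after seeing the data were a block on all 15 samples, a fit without the libraries numbered 1, and the test of the number. The functions were tested on simulated data. Plots were made in Python 3.11.15 with matplotlib 3.10.9.

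Pairing by replicate number came from the data alone. For same-numbered libraries of a pair of groups, the deviations of 16620 genes from their means were correlated, and each number had to exceed 0.1. It did for mitochondria, MitoCoat-mRNA (each against H2O2 and against each other), MitoCoat against mitochondria and MitoCoat-mRNA against control, and not for the other 5 pairs, with a range of −0.0632 to 0.406 over all. Exact permutation tests of the chemokine ratio used all 20 arrangements of 3 against 3.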

Additional observations from a re-analysis of the deposited data

How the results depend on the processing

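Of 1260 alternative values of 81 fold changes, 1105 kept their direction and their side of the threshold, 56 passed it where the value reported did not, 27 lost it, and 72 changed sign, of which 0 were called before or after. The 45 group means moved by less than 1 SD in 180 of 180 alternatives. The number of members called after H2O2 against control was 5 with the replicate block, 4 with the block on all 15 samples and 3 without the libraries numbered 1, against 1 (1 to 2 with each sample left out); over all genes these called 1479, 2525 and 1678, against 1125. With mitochondria against H2O2 it was 4 with the block, 4 with DESeq2 on all 15 samples, 4 with at least 1 count in total and 3 with DESeq2, against 2, and 1243, 1087, 734 and 883 over all genes, against 560. Ccl5, not tested in the reported fit, was among the called in the last 3 of these. For MitoCoat against H2O2 it was 1 to 2 with each sample left out, against 3, and 1.24% to 2.65% of all genes, against 3.05%. For mitochondria against MitoCoat-mRNA it was 4 with the block, against 2, and 1141 over all genes, against 554. For MitoCoat against control it was 1 to 4 with each sample left out, against 3, and 13.3% to 24.1% of all genes, against 24.1%. For MitoCoat-mRNA against control it was 5 with at least 1 count in total, 6 with the block, 4 with the block on all 15 samples and 5 without the libraries numbered 1, against 2 (1 to 5 with each sample left out), and 2698, 5756, 3389 and 2913 over all genes, against 2482. The causes were not tested. In 5 pairs of groups the pairing check failed, although 4 to 6 of 6 samples correlated best with their own number. There the block called also Il1b, Cxcl1, Cxcl2 and Nfkbia in H2O2 against control, Ccl2 in MitoCoat against MitoCoat-mRNA (adjusted p = 0.0135) and Nfkbia in mitochondria against control (adjusted p = 0.0291). With the block on all 15 samples the last 2 had adjusted p of 0.163 and 0.0897.

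Over all genes, the number called moved from 1125 to between 376 and 2525 in H2O2 against control, from 560 to 182 to 1243 in mitochondria against H2O2, from 479 to 189 to 1414 in MitoCoat against H2O2, and from 0 to at most 5 in MitoCoat against mitochondria. It moved from 554 to 227 to 1141 and from 467 to 163 to 1014 for mitochondria and MitoCoat against MitoCoat-mRNA. Against control it moved from 3523 to 2137 to 4250 with mitochondria, from 3792 to 2155 to 5266 with MitoCoat and from 2482 to 1249 to 5756 with MitoCoat-mRNA, and in the pooled comparison from 1479 to 956 to 2025. Tnf and Ccl5 had only 6 and 215 counts in all, and the effect of depth was not tested.

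Of the log2 changes that turned sign, 0 were called. With the block on all 15 samples, values that changed sign were 0.0065 for Ptgs2 in MitoCoat against H2O2, 0.098 for Il1b in MitoCoat against mitochondria, 0.011 for Ccl2 in MitoCoat against mitochondria. With at least 10 counts in every sample, values that changed sign were −0.0021 for Ptgs2 in MitoCoat-mRNA against H2O2. Without the libraries numbered 1, values that changed sign were −0.085 for Ptgs2 in MitoCoat-mRNA against H2O2, 0.34 for Il1b in MitoCoat against mitochondria, 0.069 for Ptgs2 in mitochondria against MitoCoat-mRNA, 0.10 for Il1b in MitoCoat against MitoCoat-mRNA, 0.066 for Ptgs2 in MitoCoat against MitoCoat-mRNA, 0.48 for Cxcl2 in mitochondria against control, 0.037 for Ptgs2 in pooled organelle groups. With the replicate block, values that changed sign were 0.094 for Il1b in MitoCoat against mitochondria, 0.041 for Ccl2 in MitoCoat against mitochondria. With edgeR on all 15 samples, values that changed sign were 0.00034 for Ccl2 in MitoCoat against mitochondria. Ptgs2 ranged, with each sample left out, from −0.015 to 0.46 in H2O2 against control, −0.23 to 0.15 in mitochondria against H2O2, −0.19 to 0.21 in MitoCoat against H2O2, −0.17 to 0.22 in MitoCoat-mRNA against H2O2, −0.12 to 0.20 in MitoCoat against mitochondria, −0.20 to 0.0062 in mitochondria against MitoCoat-mRNA, −0.19 to 0.13 in MitoCoat against MitoCoat-mRNA, −0.093 to 0.40 in mitochondria against control, −0.045 to 0.45 in MitoCoat against control, −0.020 to 0.47 in MitoCoat-mRNA against control, −0.12 to 0.074 in pooled organelle groups. Il6 ranged, with each sample left out, from −0.25 to 0.39 in mitochondria against H2O2, −0.17 to 0.061 in MitoCoat-mRNA against H2O2, −0.10 to 0.57 in MitoCoat against mitochondria, −0.16 to 0.49 in mitochondria against MitoCoat-mRNA, −0.44 to 0.011 in MitoCoat against control. Il1b ranged, with each sample left out, from −1.84 to 0.87 in mitochondria against H2O2, −1.52 to 0.80 in MitoCoat against H2O2, −1.63 to 0.97 in MitoCoat-mRNA against H2O2, −0.87 to 1.14 in MitoCoat against mitochondria, −1.31 to 0.99 in mitochondria against MitoCoat-mRNA, −0.97 to 0.92 in MitoCoat against MitoCoat-mRNA, −0.999 to 0.35 in pooled organelle groups. Cxcl2 ranged, with each sample left out, from −2.04 to 0.50 in MitoCoat-mRNA against H2O2, −0.69 to 0.0076 in MitoCoat against mitochondria, −1.003 to 0.57 in mitochondria against control, −1.35 to 0.22 in MitoCoat against control. Cxcl1 ranged, with each sample left out, from −0.67 to 0.20 in MitoCoat against mitochondria. Ccl2 ranged, with each sample left out, from −0.20 to 0.37 in MitoCoat against mitochondria. Ccl5 ranged, with each sample left out, from −1.65 to 0.58 in MitoCoat against mitochondria, −0.61 to 1.34 in mitochondria against MitoCoat-mRNA, −0.74 to 0.40 in MitoCoat against MitoCoat-mRNA. Nfkbia ranged, with each sample left out, from −0.022 to 0.68 in MitoCoat against control.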
